A study of Mus musculus with 4 samples.

Results

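Cells rich in Top2a that lay outside the lineage of oligodendrocyte precursor cells (OPCs) were examined in 4 coronal brain sections imaged by MERFISH, a method that counts single mRNA molecules in place over repeated rounds of fluorescent labelling. The cells were chosen by their own measured counts. A kept cell (at least 10 detected genes and a volume of at least 50 µm³) was taken when it held at least 3 Top2a transcripts, when these made up at least 1% of its transcripts, and when the OPC genes Pdgfra, C1ql1 and Gpr17 together stayed under 3%. The rule found 543 cells among 281824 kept cells, with 455 in the young sections and 88 in the aged sections. A further 118 cells passed the Top2a limits but held 3% or more of the OPC genes, and they served as dividing cells of another lineage. The sections held the striatum of both hemispheres. Young 1 and Young 2 came from mice of 2 months and Aged 1 and Aged 2 from mice of 18 months, all of them wild-type C57BL/6NTac mice per the methods, with no treatment named. The sex behind each section is not given in the sources used here. The methods describe the study's replicates as biological, while the labels name no mouse behind a section, and p-values measure the spread between these sections. The panel covered 383 genes.

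Top2a encodes the topoisomerase that untangles sister chromosomes before they part, Ect2 a guanine nucleotide exchange factor needed to cleave the cell at the end of mitosis, and Hmgb2 a chromatin protein abundant in proliferating cells. In the adult rodent forebrain, dividing cells gather along the wall of the lateral ventricle, where stem cells give rise to transit amplifying cells that carry the receptor EGFR, and these in turn to neuroblasts that carry doublecortin (Dcx) and migrate toward the olfactory bulb. OPCs also divide, and they do so throughout grey and white matter. The lineage genes followed here were Egfr, Sox9 (a transcription factor of stem cells and astrocytes), Sox11 (a transcription factor of young neurons) and Dcx (a microtubule-binding protein of migrating neuroblasts).

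The upstream sequences of the 3 marker genes are shown because Top2a, Ect2 and Hmgb2 were high in the same cells, and because genes of the late cell cycle often carry CCAAT boxes and the element TTTGAA near their start. Each line gives the 250 bases before the start of the gene (RefSeq, GRCm38.p6, gene strand, 5′ to 3′), with each CCAAT or TTTGAA on either strand in capitals. The Top2a sequence lies at chr11:99024190-99024439 on the minus strand, that of Ect2 (the first of its listed starts) at chr3:27153879-27154128 on the minus strand, and that of Hmgb2 at chr8:57511593-57511842 on the plus strand.
Top2a: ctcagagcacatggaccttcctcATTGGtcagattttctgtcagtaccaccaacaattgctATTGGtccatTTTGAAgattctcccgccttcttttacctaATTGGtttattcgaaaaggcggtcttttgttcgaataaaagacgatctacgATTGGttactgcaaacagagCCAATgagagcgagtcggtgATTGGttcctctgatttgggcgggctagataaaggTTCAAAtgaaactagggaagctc
Ect2: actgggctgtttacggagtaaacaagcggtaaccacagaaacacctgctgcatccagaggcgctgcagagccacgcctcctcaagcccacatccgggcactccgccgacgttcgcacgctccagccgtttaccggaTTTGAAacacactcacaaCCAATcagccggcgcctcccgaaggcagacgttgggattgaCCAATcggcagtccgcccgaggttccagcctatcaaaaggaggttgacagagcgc
Hmgb2: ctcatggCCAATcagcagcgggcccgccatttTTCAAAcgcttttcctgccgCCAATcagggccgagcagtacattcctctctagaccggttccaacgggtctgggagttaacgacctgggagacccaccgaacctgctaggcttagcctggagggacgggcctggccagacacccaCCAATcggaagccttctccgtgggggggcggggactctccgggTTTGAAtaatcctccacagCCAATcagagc
CCAAT was found 6 times before Top2a, 2 times before this start of Ect2 (3 times before its other listed start) and 4 times before Hmgb2. Among 32851 listed mouse promoters of this length, 0.0578% held it at least 6 times, 0.840% at least 4 times, 2.79% at least 3 times and 10.1% at least 2 times. TTTGAA was found 2 times before Top2a, 1 time before Ect2 and 2 times before Hmgb2, where 16% of the promoters held it at least 1 time and 1.81% at least 2 times. These matches describe the letters only, and no factor's binding was measured.

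Kept cells numbered 68011 and 70774 in the young and 68415 and 74624 in the aged sections, and the median kept cell held 400, 325, 215 and 293 transcripts in Young 1, Young 2, Aged 1 and Aged 2. The Top2a-rich cells had medians of 281, 236, 222 and 212 transcripts in the same order. Their median Top2a count was 8, 7, 6 and 7, with single cells reaching 67, 69, 47 and 51. They held 44.7 and 50.5% of all Top2a transcripts of the kept cells in the young, but 22.1 and 22.8% in the aged sections. No cell identifier occurred in more than 1 section.

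Top2a-rich cells outside the OPC lineage were about 5 times rarer at 18 months than at 2 months. Young 1 held 216 of them and Young 2 held 239, whereas Aged 1 and Aged 2 held 44 each. Per 10000 kept cells this was 31.8 in Young 1 (95% exact binomial interval 27.7 to 36.3) and 33.8 in Young 2 (29.6 to 38.3), against 6.43 in Aged 1 (4.67 to 8.63) and 5.90 in Aged 2 (4.28 to 7.91). The means were 32.8 ± 1.42 (SD, n = 2) and 6.16 ± 0.378 (SD, n = 2), a ratio of 5.32, and the groups did not overlap. With 2 sections per age the two-sided exact permutation test cannot go below p = 0.333, which is the value it gave. The intervals cover counting error only. Every cell with at least 200 transcripts was also thinned to that number, and at least 2 Top2a transcripts were asked for. The frequencies were then 32.7, 35.8, 9.88 and 7.70 per 10000 such cells, a ratio of means of 3.89. Such cells numbered 49854, 47241, 36421 and 48029, and shallower cells did not enter. The part of depth in the main ratio was not tested otherwise.

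The 118 Top2a-rich cells of the OPC lineage were also rarer in both aged sections. They numbered 46 and 52 in the young and 14 and 6 in the aged sections, or 6.76 and 7.35 against 2.05 and 0.804 per 10000 kept cells. The Top2a-rich cells outside the lineage outnumbered them 4.70-fold, 4.60-fold, 3.14-fold and 7.33-fold in Young 1, Young 2, Aged 1 and Aged 2, and these ratios overlapped between ages. Dcx-rich cells were taken as kept cells without Top2a in which Dcx and Sox11 together reached at least 3 transcripts and 3% of the total. They numbered 352 and 386 in the young and 128 and 173 in the aged sections. For every 100 Dcx-rich cells there were 61.4 and 61.9 Top2a-rich cells in the young and 34.4 and 25.4 in the aged sections, with p = 0.333 by the exact permutation test, the smallest possible. The ratio of Top2a-rich to Dcx-rich cells was thus lower in both aged sections than in either young section.

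**Figure D1:**
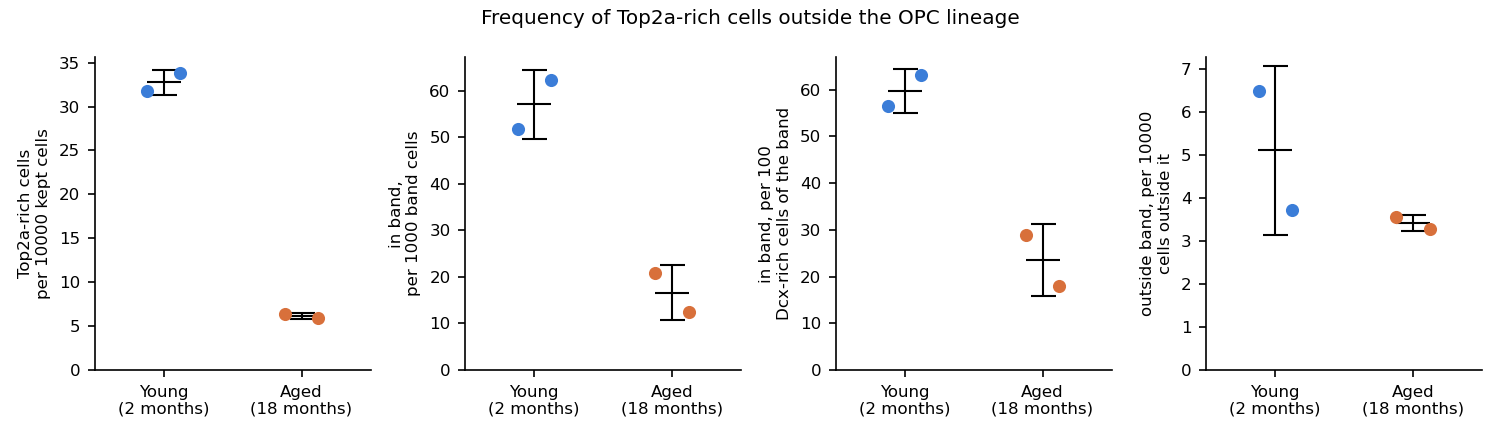
Frequency of Top2a-rich cells outside the OPC lineage in 2 young and 2 aged sections, from left to right per 10000 kept cells, per 1000 kept cells of the Dcx band, per 100 Dcx-rich cells of the band, and outside the band per 10000 cells there. Points are sections, and the black bars give the mean ± SD (n = 2). All 4 measures are lower in both aged sections, and outside the band Young 2 (3.71) lies close to Aged 1 (3.56) and Aged 2 (3.29).

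Most of these cells of the young sections lay along narrow lines of Dcx-rich cells. Position was not part of the rule. Cells rich in the ependymal genes Rsph9, Riiad1 and Nme9 were the first landmark of the ventricle, but only 22, 4, 5 and 6 cells met that limit. The median distance to them was shorter than for other kept cells in 3 of 4 sections (mean difference -463 µm, lowest -1162 and highest 44.9 µm, two-sided exact sign-flip p = 0.250). Dcx-rich cells without Top2a were used as a further landmark, chosen after the data were seen. The median Top2a-rich cell was 24.8 and 19.2 µm from the nearest Dcx-rich cell in Young 1 and Young 2, and 45.8 and 82.6 µm in Aged 1 and Aged 2. Other kept cells had medians of 463, 498, 465 and 447 µm in the same order. The OPC-lineage Top2a-rich cells had medians of 213, 408, 421 and 270 µm, in every section below the other kept cells and above the Top2a-rich cells outside the lineage. In all 4 sections the Top2a-rich cells outside the lineage were thus nearer to Dcx-rich cells than the other kept cells (mean difference -425 ± 47.7 µm, SD) and than the OPC-lineage cells (-285 ± 112 µm, SD), with an exact sign-flip p of 0.125 for each, the smallest that 4 sections allow.

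A Dcx band was drawn as all kept cells within 100 µm of a core cell, that is, a Dcx-rich cell that had at least 5 others within 150 µm. It held 4.93%, 4.85%, 1.41% and 2.15% of the kept cells of Young 1, Young 2, Aged 1 and Aged 2. Of the Top2a-rich cells, 174 of 216 (80.6%, exact binomial interval 74.6 to 85.6) lay in the band in Young 1 and 214 of 239 (89.5%, 84.9 to 93.1) in Young 2. In Aged 1 and in Aged 2 it was 20 of 44 (45.5%, 30.4 to 61.2). Of the OPC-lineage cells, 8 of 46, 4 of 52, 3 of 14 and 0 of 6 lay in it. For the last, a floor of 3 cells stands for a share of 50%, which is not a binomial limit. In Young 1, Young 2 and Aged 1 this was 17.4, 7.69 and 21.4%, above the band's share of the kept cells. The share of Top2a-rich cells in the band, as counted, was higher than that of the OPC-lineage cells in each of the 4 sections (mean difference 53.6 percentage points, exact sign-flip p = 0.125). This takes the share of Aged 2 as 0, where 6 OPC-lineage cells are too few to settle the direction.

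**Figure D2:**
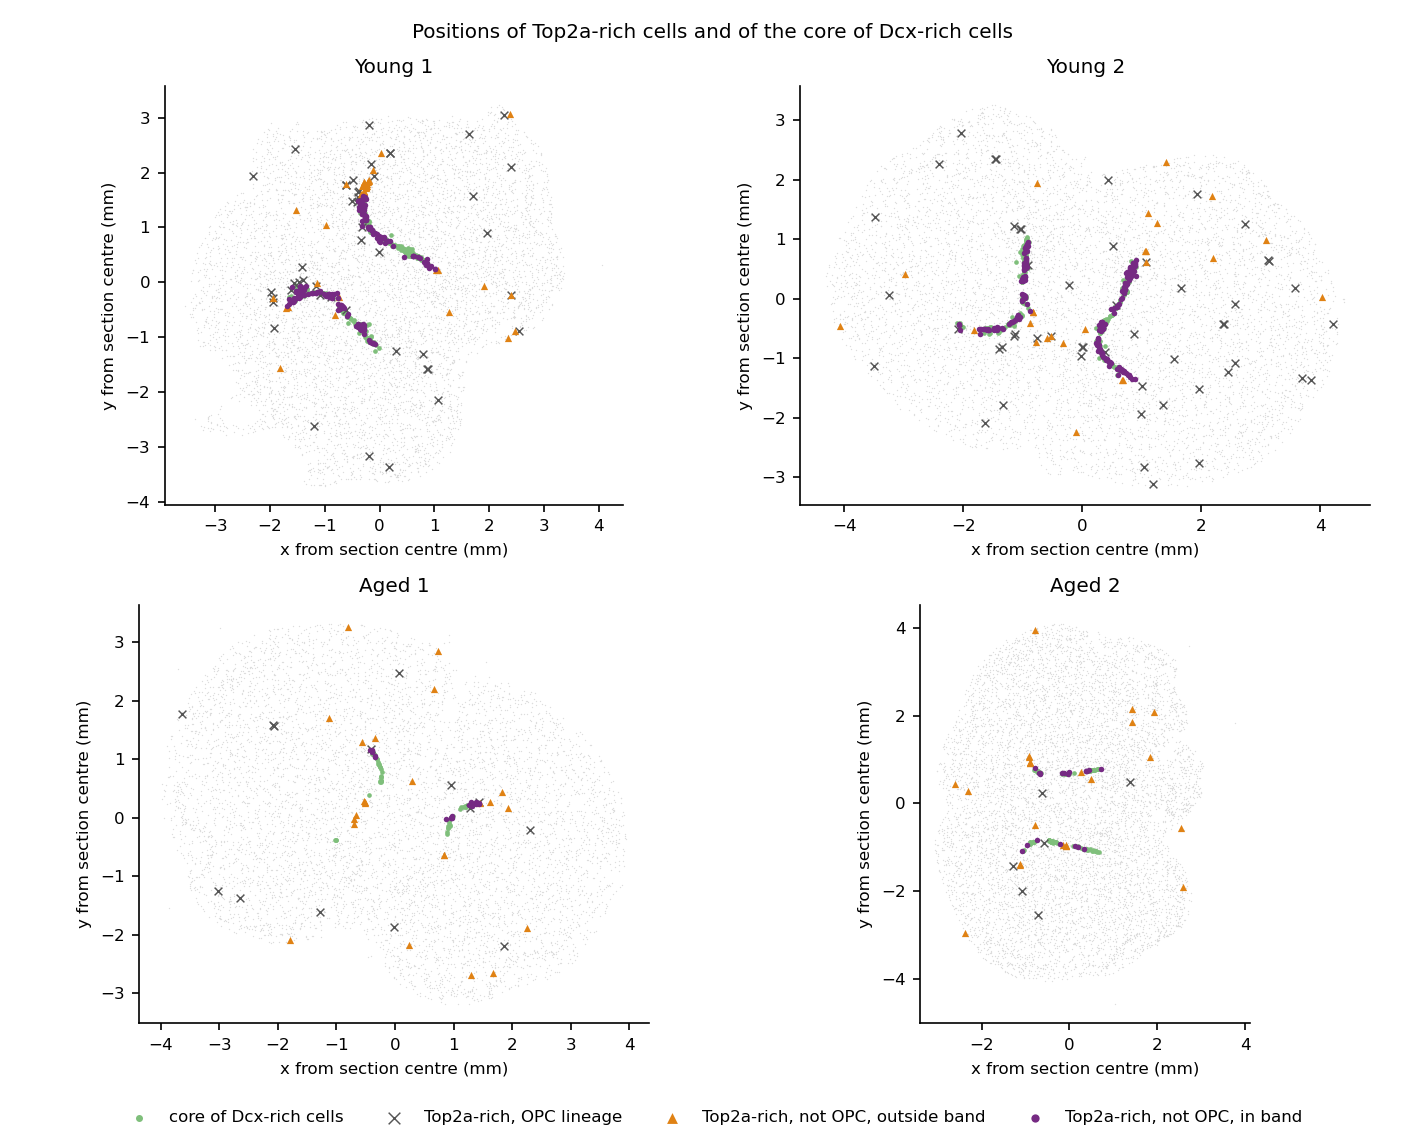
Maps of the 4 sections, with axes in mm from the section centre and grey dots for a subset of all kept cells. Purple circles are Top2a-rich cells in the Dcx band (174, 214, 20 and 20), orange triangles those outside it (42, 25, 24 and 24), grey crosses Top2a-rich cells of the OPC lineage, and green circles the core of Dcx-rich cells. Purple and green share the same lines, which are long in the young and short or broken in the aged sections.

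Inside the band the cells were fewer at 18 months. Per 1000 band cells there were 51.9 and 62.3 Top2a-rich cells in the young and 20.8 and 12.5 in the aged sections, a ratio of means of 3.43 (exact permutation p = 0.333). The band itself was smaller, since its core counted 305 and 335 Dcx-rich cells in the young and 63 and 106 in the aged sections. Outside the band the frequency was 6.50 and 3.71 per 10000 cells in the young and 3.56 and 3.29 in the aged sections, a ratio of means of 1.49, and while the groups did not overlap, Young 2 and Aged 1 differed little. Within 25 µm of the core, 83.3 and 117 of every 1000 kept cells were Top2a-rich in Young 1 and Young 2, and 37.2 and 28.4 in Aged 1 and Aged 2. Between 25 and 50 µm the values were 63.6, 63.4, 25 and 13.9, between 50 and 100 µm they were 15.8, 11, 11.5 and 3.64, and beyond 1600 µm they were 0.156, 0.205, 0.223 and 0.184. The frequency was thus lower in both aged sections within 50 µm of the core. Between 800 and 1600 µm it was lower as well, with 0.253, 0.223, 0.0951 and 0.180 from 6, 5, 2 and 4 cells. It overlapped between the ages in the bins from 50 to 800 µm and beyond 1600 µm. How much of the ventricular wall a section crosses can set the number of band cells, and the plane of each section is not given in the sources used here, so its part in the difference cannot be told apart from age.

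The Top2a-rich cells sat close together. The median distance from one to the next was 16.7 and 14.3 µm in the young and 42.1 and 61.4 µm in the aged sections. Another Top2a-rich cell lay within 25 µm of 65.7 and 73.2% of them in Young 1 and Young 2, and of 43.2 and 36.4% in Aged 1 and Aged 2. The surroundings differed between the aged sections, as a median of 24.7% of the cells within 150 µm of a Top2a-rich band cell were oligodendrocyte-rich in Aged 1 and 0.946% in Aged 2, compared with 8.54 and 4.14% in Young 1 and Young 2.

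Levels below were formed by summing a class of cells within a section and are given as transcripts of a gene per 10000 transcripts. Top2a, which chose the cells, stood at 325, 321, 303 and 316 in Young 1, Young 2, Aged 1 and Aged 2. Ect2 was named as a marker from earlier results of these data, so its level is a description. It stood at 72.2, 70.8, 73.5 and 64.3, against 3.31, 2.67, 1.57 and 3.74 in neighbouring cells without Top2a. Hmgb2, named in the same way, stood at 18.7, 19.2, 21.1 and 17.2, against 1.22, 1.78, 3.54 and 1.43 in the neighbours. Both genes were well above the neighbouring cells in every section, young or aged. In the OPC-lineage Top2a-rich cells Hmgb2 was at 16.9, 16.4, 17.7 and 16.1, of which 1 value lay within the range of the other Top2a-rich cells and 3 below it, and Ect2 was at 132, 146, 121 and 221, above every section of them.

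Egfr was the lineage gene that most clearly marked the Top2a-rich cells outside the OPC lineage. Its level was 132 in Young 1, 78.0 in Young 2, 133 in Aged 1 and 103 in Aged 2, with overlap of the ages. In neighbouring cells it was 14.3, 11.8, 12.6 and 8.09, in Dcx-rich cells 19.0, 25.5, 33.9 and 17.7, and in OPC-lineage Top2a-rich cells 2.72, 1.70, 17.7 and 5.38. No section of these other classes reached the lowest Egfr level of the Top2a-rich cells. Sox11 was at 227 and 318 in the young and at 118 and 144 in the aged sections, and Dcx at 91.0 and 121 in the young and at 41.3 and 83.9 in the aged sections. Neighbours had 42.7, 56.5, 33.0 and 30.3 of Sox11 and 34.9, 46.4, 34.0 and 30.5 of Dcx. Sox9 was at 89.3, 76.7, 52.3 and 65.1, against 56.4, 50.7, 45.8 and 60.9 in the neighbours and 9.25, 10.8, 15.2 and 26.9 in the OPC-lineage cells. Sox9 was thus lower in the OPC-lineage cells of every section. Within every section it was also lower in the neighbours than in the Top2a-rich cells, though the levels of these classes overlapped across sections.

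**Figure D3:**
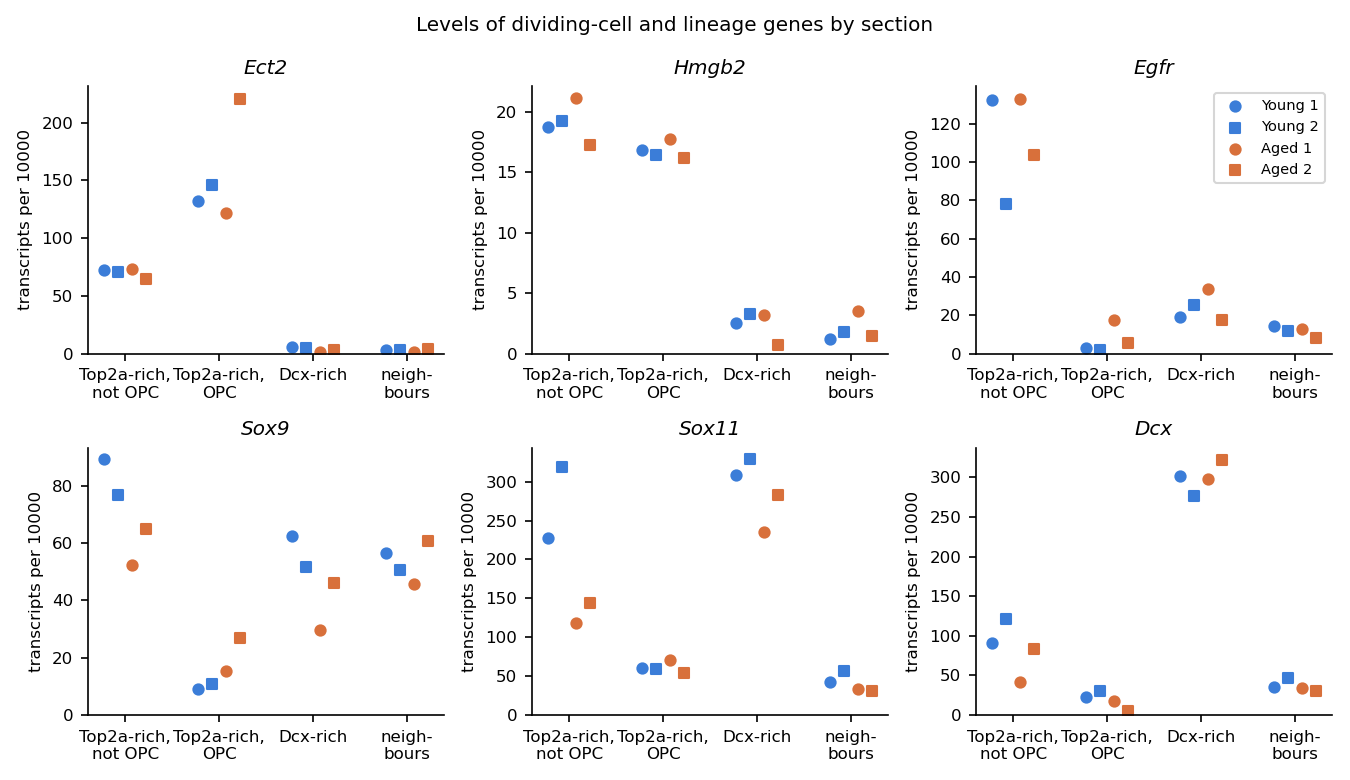
Level of 6 genes in transcripts per 10000 (vertical axis) in Top2a-rich cells outside and inside the OPC lineage, Dcx-rich cells and neighbouring cells, with one point per section (blue young, orange aged, circles the first and squares the second section of an age). Egfr is highest in the Top2a-rich cells outside the OPC lineage (78.0 to 133), and Ect2 in those of the OPC lineage (121 to 221).

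The levels inside and outside the band differed for the neuronal genes. Sox11 stood at 248, 353, 186 and 209 in the band and at 164, 100, 68.7 and 91.2 outside it in Young 1, Young 2, Aged 1 and Aged 2. For Dcx the values were 99.3, 135, 75.5 and 146 in the band and 65.1, 34.4, 16 and 32.8 outside it. Both genes were higher in the band in each of the 4 sections. They also drew the band, so this follows in part from how it was set. Band cells without Top2a had Sox11 at 34.4, 37.4, 26.7 and 31.5 in the same order, against 11.9, 11.7, 8.58 and 8.86 in all kept cells. Egfr was at 133, 83.9, 160 and 132 in the band and at 129, 41.3, 113 and 79.8 outside it, also higher in the band in each section, though by little in Young 1. These differences were not tested.

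In some segmented cells both Egfr, an early gene of the neuronal lineage, and Dcx, a late one, were counted. After each cell with at least 100 transcripts was thinned to that number, which left out 23, 37, 10 and 7 shallower cells, Egfr was detected in 50.8%, 41.1%, 41.2% and 45.9% of the Top2a-rich cells of Young 1, Young 2, Aged 1 and Aged 2. Without thinning the shares were 68.5%, 57.3%, 54.5% and 65.9%. In thinned Dcx-rich cells Egfr was detected in 12.2%, 12.7%, 23.9% and 10.1%. In thinned medium spiny neuron-rich cells, which should lack Egfr, the shares were 1.20%, 0.900%, 0.750% and 0.550%. Those neurons held medians of 655, 509, 329 and 458 transcripts before thinning, and the Top2a-rich cells 317, 281, 272 and 229. Dcx was detected in 47.2%, 57.9%, 32.4% and 43.2% of the thinned Top2a-rich cells (unthinned 64.8%, 69.9%, 43.2% and 47.7%), and in 5.70%, 4.55%, 5.2% and 5.2% of the thinned neurons. Both genes were found in 19.2%, 21.8%, 17.6% and 24.3% of the thinned Top2a-rich cells, and at full depth in 42.1%, 40.2%, 29.5% and 36.4%. Whether the genes occurred together more or less often than their separate shares give was not tested, and the thinned share with both overlapped between the ages.

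The Top2a-rich cells were next compared with their neighbours, the other kept cells without Top2a within 50 µm (1753, 1671, 457 and 610 cells), to ask which genes set them apart at the same place. The 4 genes of the rule were left out. Of 329 genes tested, 63 were higher (19.1%) and 82 lower (24.9%) in the Top2a-rich cells by edgeR's quasi-likelihood test with the section as a block. The markers Ect2 (log2 fold change 4.62 ± 0.23 SE) and Hmgb2 (3.44 ± 0.30) are given as a description. After them, the highest folds were those of Egfr (3.23 ± 0.17, adjusted p = 1.55e-08), H2afz (a histone variant, 2.92 ± 0.23), Ccnd2 (cyclin D2, which drives cells into the division cycle, 2.62 ± 0.18), Mdk (a growth factor, 2.47 ± 0.36), Sox11 (2.26 ± 0.18), Hmgb3 (2.25 ± 0.24), Pou3f2 (a transcription factor of neural progenitors, 2.02 ± 0.16) and H2afv (1.92 ± 0.22). Ccnd2 shows the size of this difference in each section. It stood at 424, 551, 288 and 269 per 10000 in the Top2a-rich cells and at 58.8, 77.8, 65.0 and 42.6 in the neighbours, without overlap.

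All 9 genes of the chromatin and growth list (H2afz, H2afv, Hmgb3, Anp32b, Ran, Odc1, Ccnd2, Cenpb and Dnmt3b) were higher than in the neighbours, with a median log2 fold change of 1.73, where the median over all genes tested was -0.0012. Odc1, the first enzyme of polyamine synthesis, was higher by 1.73 ± 0.20 and Anp32b by 1.53 ± 0.20. Of the 10 neuroblast genes 8 were higher and 0 lower (median 1.19), Dcx among them with 1.18 ± 0.21 (adjusted p = 0.000436). Of the 9 genes of the stem and transit amplifying list 4 were higher, namely Egfr, Fabp7 (1.74 ± 0.33), Thbs4 (0.59 ± 0.16) and Vim (0.55 ± 0.20). Sox9 (0.41 ± 0.18, adjusted p = 0.0812) did not pass in the main fit, though it did under some alternatives given below. The genes of mature neurons and oligodendrocytes were lower. This held for 7 of 7 medium spiny neuron genes (Drd1 with -2.81 ± 0.27, Penk with -2.63 ± 0.28), 6 of 7 general neuron genes and 5 of 6 oligodendrocyte genes. Of the 7 astrocyte genes 0 were higher and 2 lower. Genes lowest against the neighbours also included Tesc (-2.94 ± 0.51), Vgf (-2.56 ± 0.63), Snhg11 (-2.45 ± 0.15), Drd2 (-2.40 ± 0.26), Scn4b (-2.25 ± 0.29), Pde10a (-2.23 ± 0.17) and Scg2 (-2.04 ± 0.25), several of them genes of striatal neurons. Without Young 1, Vgf no longer passed (-1.91, adjusted p = 0.0820). Sox9 passed under 5 alternatives, by the largest margin against neighbours within 100 µm (0.87, adjusted p = 0.00236). The others were a Top2a share of at least 2% (0.57, adjusted p = 0.0429), leaving out Aged 2 (0.59, adjusted p = 0.0221), the size factors of DESeq2 (0.47, adjusted p = 0.0468) and total counts (0.46, adjusted p = 0.0357).

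Microglia genes were also higher over the 4 sections, and this moved with position and section. Of 9 tested microglia genes 8 were higher in the Top2a-rich cells than in the neighbours, among them Tmem119 (1.59 ± 0.44) and Csf1r (1.27 ± 0.33). The log2 ratio of the list's share in the Top2a-rich cells to that in the neighbours was 0.13 and 0.72 in Young 1 and Young 2, and 2.10 and 1.68 in Aged 1 and Aged 2, so the excess was small in Young 1. By the interaction with age 10 of 10 microglia genes had a positive value and 0 passed, with 4 higher at an unadjusted p under 0.05, as were 16 of all 351 genes tested (4.56%). When both classes were limited to the Dcx band, a limit added after the data were seen, 54 of 303 genes were higher (17.8%) and 95 lower (31.4%). There 0 of 6 tested microglia genes passed and Csf1r stood at 0.22 (adjusted p = 0.587). Of the chromatin and growth list 9 of 9 genes and of the neuroblast list 8 of 10 were higher in the band.

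The second comparison asked how the cells differ from dividing cells of the OPC lineage, which share the Top2a limits. Of 204 genes tested, 33 were higher (16.2%) and 27 lower (13.2%) in the cells outside the lineage, 60 in all. Without Young 1 there were 28 calls and without Young 2 there were 33. Egfr led with a log2 fold change of 4.55 ± 0.51 SE (adjusted p = 0.000866). It was followed by Dlx6os1 (a non-coding RNA of GABAergic neuronal precursors, 3.70 ± 0.46), Ccnd2 (2.80 ± 0.35), Ezr (ezrin, a linker of membrane and actin, 2.61 ± 0.35), Sox9 (2.48 ± 0.39), Slc38a1 (2.44 ± 0.32), Thbs4 (thrombospondin 4, 2.37 ± 0.46), Ahnak (2.33 ± 0.41), Sox4 (2.32 ± 0.50) and Pltp (2.31 ± 0.42). Dcx (1.95 ± 0.33, adjusted p = 0.00508) and Sox11 (1.62 ± 0.32, adjusted p = 0.0101) were also higher. Of the neuroblast list 7 of 10 genes were higher and 0 lower, and of the stem and transit amplifying list 5 of 6 were higher and 1 lower, Fabp7 (-1.43 ± 0.37), a fatty acid-binding protein of progenitors. The OPC-lineage class held 14 cells in Aged 1 and 6 in Aged 2, so that a level there rests on few transcripts. Sox4 no longer passed without Young 1 (2.46, adjusted p = 0.0565) or without Young 2 (1.81, adjusted p = 0.0647).

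The genes lower than in the OPC-lineage cells were led by Tnr (-4.60 ± 0.28), Brinp3 (-4.27 ± 0.28), Olig1 (-3.39 ± 0.27), Cntn1 (-3.38 ± 0.26), Brinp1 (-2.67 ± 0.30), S100b (-2.24 ± 0.23), Anks1b (-2.14 ± 0.23), Grm5 (-1.79 ± 0.23), Pcsk2 (-1.57 ± 0.25) and Ptprz1 (-1.53 ± 0.13). Pcsk2 no longer passed with a Top2a share of at least 0.5% (-0.88, adjusted p = 0.0616). Tnr and Olig1 belong to the OPC list but not to the rule, which parted the classes by 3 other genes of that lineage. Genes of the same lineage can differ through that split, so their gap is given as a description. Tnr shows the gap in each section, with 6.45, 5.46, 13.8 and 4.70 per 10000 in the cells outside the lineage and 174, 152, 180 and 124 in those of it. Ect2 was lower (-1.17 ± 0.24, adjusted p = 0.0101), and its levels did not overlap between the classes. Hmgb2 did not pass (0.12 ± 0.24, adjusted p = 0.738). Of 8 tested chromatin and growth genes 3 were higher than in the OPC-lineage cells, Ccnd2 among them.

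The third comparison set the cells against Dcx-rich cells without Top2a, which lie along the same lines, with Dcx and Sox11 left out as well because they chose that class. Of 271 genes tested, 61 were higher (22.5%) and 57 lower (21.0%). All 8 tested genes of the neuroblast list were lower in the Top2a-rich cells, among them Dlx6os1 (-1.83 ± 0.25), Stmn2 (a microtubule regulator of growing neurites, -1.56 ± 0.24), Sox4 (-1.54 ± 0.19) and Meis2 (-1.54 ± 0.19). Because the Dcx-rich class was picked by 2 genes of this list, its other genes can be higher there through that choice, in the band as well. The list is therefore given as a description. The genes lowest overall were Meg3 (-2.26 ± 0.21), Lrrc7 (-2.20 ± 0.21), Tenm2 (-2.06 ± 0.27) and Sorbs2 (-1.99 ± 0.24), with Myt1l (-1.82 ± 0.29) and Ly6h (-1.80 ± 0.30) close behind. Higher were Ect2 (3.91 ± 0.25), Hmgb2 (2.72 ± 0.28) and Egfr (2.00 ± 0.21, adjusted p = 0.000409), and 4 of 9 chromatin and growth genes. Of the stem and transit amplifying list 3 of 8 genes were higher, whereas Sox9 did not pass (0.36 ± 0.15, adjusted p = 0.0762). Meis2 stood at 147, 186, 110 and 101 per 10000 in the Top2a-rich cells and at 379, 326, 306 and 310 in the Dcx-rich cells, without overlap.

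Genes of other mature cells were also among the highest against Dcx-rich cells. These included the oligodendrocyte genes Mal (2.10 ± 0.33), Mag (2.06 ± 0.32), Cldn11 (2.01 ± 0.34) and Opalin (2.00 ± 0.44), and the mural cell genes Vtn (1.98 ± 0.65) and Rgs5 (1.84 ± 0.34). Of the 5 mural genes 2 passed as higher, with 4 positive values and 1 negative. Higher as well were 4 of 7 microglia, 3 of 6 astrocyte and 2 of 4 endothelial genes, with 0 lower in each list. In the band these were 0 of 4, 2 of 6 and 2 of 4. Vtn no longer passed without Aged 2 (1.60, adjusted p = 0.156), with at least 5 Top2a transcripts (1.78, adjusted p = 0.0979) or with an OPC limit of 5% (1.87, adjusted p = 0.0668), and Rgs5 no longer passed with a Top2a share of at least 2% (1.19, adjusted p = 0.0880). In the band both passed, Rgs5 with 2.38 (adjusted p = 0.00184) and Vtn with 2.21 (adjusted p = 0.0494). All 6 oligodendrocyte genes passed, but 0 of 6 did so when both classes were limited to the Dcx band, where Mal stood at 1.46 (adjusted p = 0.0899). In the band 40 of 244 genes were higher (16.4%) and 37 lower (15.2%). The neuroblast list had 6 of 8 genes lower and the chromatin and growth list 6 of 9 genes higher, and Sox9 passed there (0.54, adjusted p = 0.0153), as it did with total counts (0.59, adjusted p = 0.00740) and with a Top2a share of at least 2% (0.55, adjusted p = 0.0228).

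**Figure D4:**
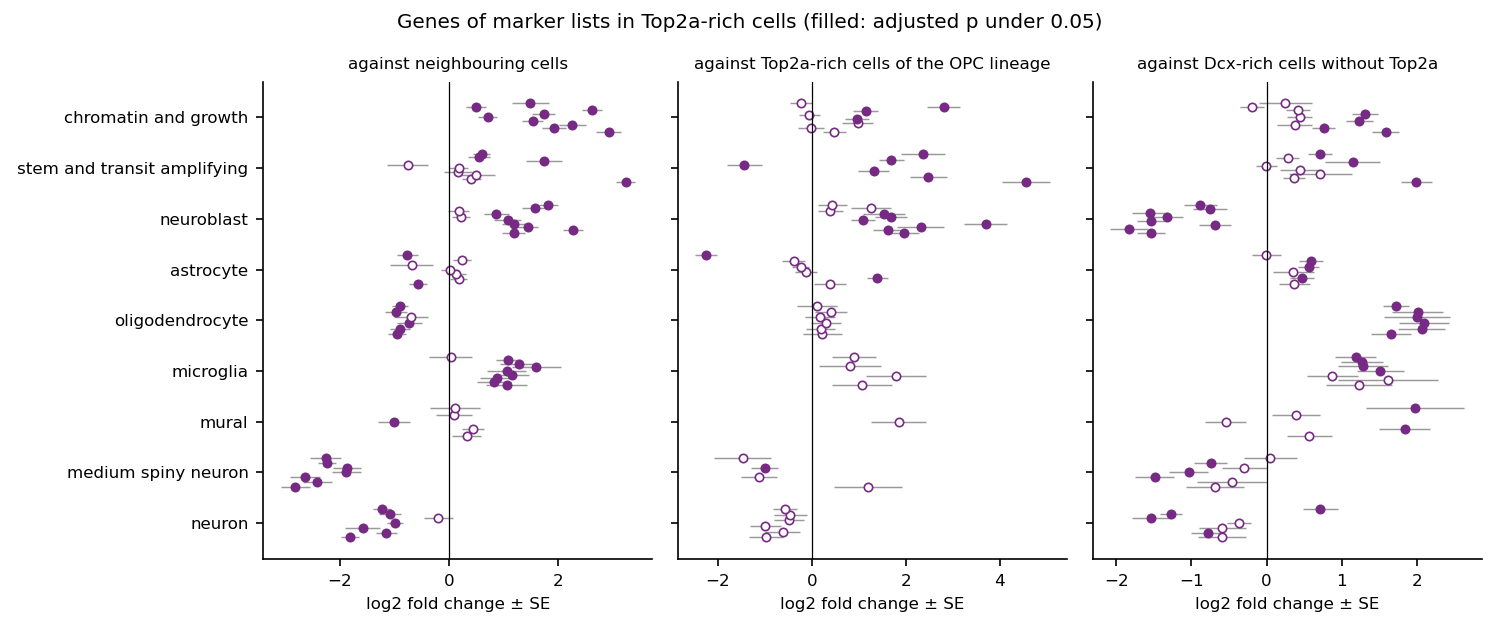
Log2 fold changes ± SE of the genes of 9 lists (one point per gene) in Top2a-rich cells outside the OPC lineage against neighbouring cells, OPC-lineage Top2a-rich cells and Dcx-rich cells, with filled points for an adjusted p under 0.05. All 9 chromatin and growth genes lie to the right of 0 against neighbours, and the neuroblast genes lie to the right in the first 2 panels and to the left in the third.

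To ask how far the rule returned a single kind of cell, each cell was given the marker list whose share of its transcripts most exceeded the mean of all kept cells (at least 2-fold, on at least 3 transcripts), which describes a range and not a type. The stem and transit amplifying list or the neuroblast list led in 409 of the 543 cells, by section in 75.5 and 81.6% of the young and in 54.5 and 61.4% of the aged. In the band the stem and transit amplifying list led in 87 of 174 cells of Young 1, 61 of 214 of Young 2, and 9 and 10 of 20 in Aged 1 and Aged 2. The neuroblast list led in 55, 128, 7 and 8 in the same order. The neuroblast list was thus the more frequent in Young 2 and the stem and transit amplifying list in the other 3 sections. Outside the band the lists were mixed. There, of 67 young and 48 aged cells, the stem and transit amplifying list led in 15 and 12, the neuroblast list in 12 and 5, the oligodendrocyte list in 14 and 6, the microglia list in 5 and 9, and the OPC list in 10 and 2. By these lists the name of dividing progenitors fitted most band cells, but only 27 of 67 young and 17 of 48 aged cells outside the band. For those outside, the plain name of Top2a-rich cells is kept here. The band was drawn by Dcx and Sox11, which are on the neuroblast list, so the lead of that list there is partly built in. Band cells without Top2a also held more Dcx than all kept cells. In Young 1, Young 2, Aged 1 and Aged 2 it stood at 31.5, 31.9, 32.5 and 34.4 against 13.1, 13.3, 12.4 and 13.3 per 10000. How often these lists lead in band cells without Top2a was not counted. No doublet caller was run, and whether transcripts of adjoining cells were joined in segmentation was not tested. Counting only the cells led by the 2 progenitor lists, a choice made after the data were seen, gave 24 and 27.6 per 10000 kept cells in the young and 3.51 and 3.62 in the aged sections, a ratio of 7.23. For the other cells the ratio was 2.69.

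**Figure D5:**
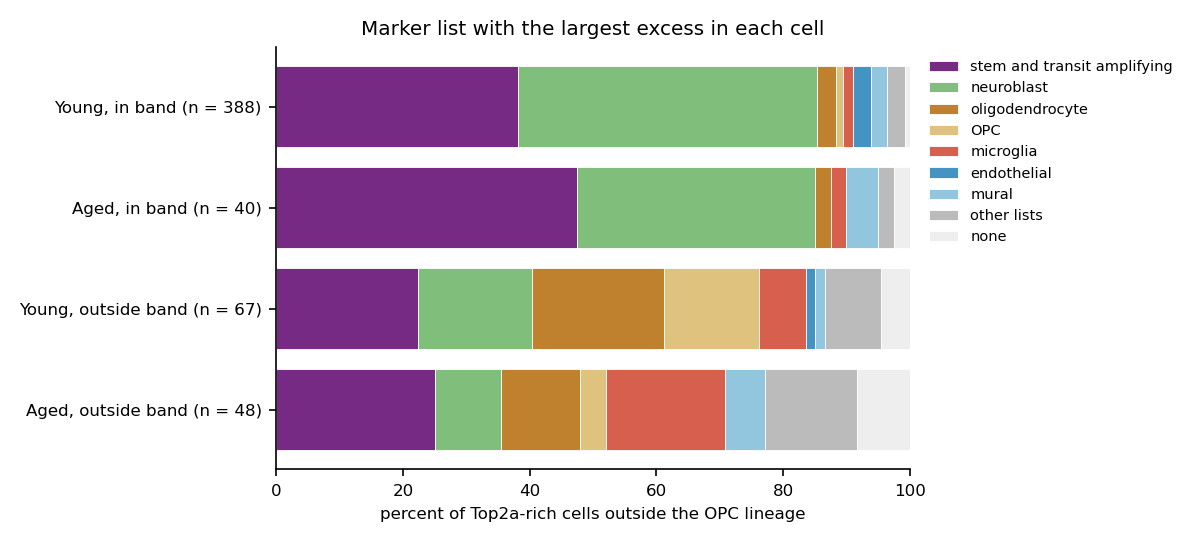
Marker list with the largest excess in each Top2a-rich cell, as percent of the cells in or outside the Dcx band of the young and aged sections. The stem and transit amplifying and neuroblast lists make up most of both bars for the band, and the bars outside it hold larger shares of oligodendrocyte and microglia lists.

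The change of genes with age within these cells was then tested on the sums per section, which held 79039 and 73311 transcripts in the young and 10891 and 12758 in the aged sections. In such sums, fewer cells with a gene and fewer transcripts per cell cannot be told apart. Of 301 genes tested, 0 were higher (0.0%) and 0 lower (0.0%) at an adjusted p under 0.05 by edgeR, with 37 higher (12.3%) and 26 lower (8.64%) at an unadjusted p under 0.05. DESeq2 called 13, with 9 higher and 4 lower, and edgeR called 24 without Aged 1 and 33 without Aged 2. In these last fits the aged group is 1 section, which is assumed to vary as the 2 young sections do, so their counts are not on a par with that of the full design. Ect2 (log2 fold change -0.24 ± 0.22 SE, adjusted p = 0.599), Hmgb2 (-0.17 ± 0.29, adjusted p = 0.789) and Egfr (0.0045 ± 0.30, adjusted p = 0.999) had small values. Sox11 (-1.25 ± 0.26, adjusted p = 0.142), Dcx (-0.96 ± 0.38, adjusted p = 0.245) and Sox9 (-0.68 ± 0.22, adjusted p = 0.202) had negative values, and none of them passed. Under DESeq2, Sox11 had an adjusted p of 0.0175. Without Aged 2, where the spread comes from the young pair alone, Sox11 stood at -1.32, adjusted p = 0.0203, and Dcx at -1.48, adjusted p = 0.0109.

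All 10 neuroblast genes had a negative value (median -1.24, against -0.0087 over all genes tested), and 9 of them had an unadjusted p under 0.05. Marcksl1 stood at 43.3 and 42.7 per 10000 in the young sections and at 11 and 21.9 in the aged (-1.55 ± 0.35, adjusted p = 0.146), and Dlx6os1 at 189 and 311 against 88.1 and 129 (-1.40 ± 0.35, adjusted p = 0.163). Ccnd2, of the chromatin and growth list, was at 424 and 551 against 288 and 269 (-1.0 ± 0.22, adjusted p = 0.142). The groups did not overlap for Marcksl1, Dlx6os1 and Ccnd2. All 9 chromatin and growth genes had a negative value (median -0.63), 3 of them at an unadjusted p under 0.05 by edgeR, and 0 passed. In the other direction, 8 of 8 tested microglia genes had a positive value (median 1.28), 6 of them at an unadjusted p under 0.05. B2m, a subunit of MHC class I and no member of that list, stood at 7.34 and 6.82 against 30.3 and 37.6 (2.08 ± 0.28, adjusted p = 0.142).

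The share of microglia genes and the lists that led the cells differed between the ages as well, and their part in these values was not tested. The 10 microglia genes, all detected in the Top2a-rich cells of each section, made up 0.716 and 0.831% of their transcripts in the young and 2.35 and 2.12% in the aged sections. Among all kept cells they made up 0.688, 0.665, 0.690 and 0.630%. In the band alone the list stood at 0.471 and 0.789% in the young and at 0.367 and 0.366% in the aged sections, where Tmem119, Siglech and Trem2 were at 0 in the band cells of both aged sections. Limited to the band, 0 of 266 genes passed by edgeR, and at an unadjusted p under 0.05 there were 10 higher (3.76%) and 5 lower (1.88%). There Sox11 had a log2 fold change of -0.59 (adjusted p = 0.854), Dcx of -0.073, Ccnd2 of -0.27 and Egfr of 0.46, while B2m stood at 1.73 (adjusted p = 0.716). When instead the cells led by the microglia or border macrophage list were left out, also a choice made after the data were seen, edgeR again called 0 genes, and Sox11 stood at -1.07 and Dcx at -0.76. In the band, all 10 neuroblast genes again had a negative value (median -0.55), with 1 at an unadjusted p under 0.05. Of the 9 chromatin and growth genes 8 had a negative value there (median -0.27), with 0 at an unadjusted p under 0.05. The band held 20 Top2a-rich cells in each aged section, which limits the differences that this depth can show. Transcripts of some genes came from few cells, as 1 cell of Aged 2 held all 100 Lyz2 transcripts of the Top2a-rich cells there, and 1 cell 17 of 20 Cxcl10 transcripts.

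Whether the difference from the neighbours changed with age was tested by an interaction term, and 0 of 351 genes passed by edgeR (smallest adjusted p = 0.206), with 16 higher (4.56%) and 22 lower (6.27%) at an unadjusted p under 0.05.

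The cells just inside and just outside the Top2a limit are given as a description. With exactly 3 Top2a transcripts there were 27, 36, 12 and 4 cells in Young 1, Young 2, Aged 1 and Aged 2, just inside the limit. Just outside it, with 2 Top2a transcripts and all other conditions met, there were 30, 38, 14 and 7. In the band lay 88.9%, 88.9%, 41.7% and 50% of the former and 83.3%, 84.2%, 28.6% and 42.9% of the latter. Ect2 stood at 27.9, 51.7, 64.9 and 34.2 per 10000 inside the limit and at 29.8, 46.0, 10.2 and 110 outside it, the last 2 values of each from 14 cells or fewer.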

How the data were processed

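MERFISH counts of 383 genes were analysed in 4 sections, grouped by the sample titles and age labels. Where header lines of the young sections numbered them differently from their titles, the titles were followed. Per the methods, the authors imaged 10 µm coronal sections and decoded transcripts with MERLIN. The genome build behind the probes is not given in the sources used here. The deposited count of a gene in a cell holds decoded transcripts as whole numbers, not normalized. The deposited volume of a cell is an imaging signal in µm³, and a deposited table of mean signal per gene matched the means of the counts over all segmented cells (largest difference 4.66e-09, 383 genes). Cell centres were taken to be in µm. The cells, gene lists and tests were chosen with earlier results of these data known.

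Counts were summed per section and class and compared with edgeR 4.0.16 in R 4.3.3 (TMM, filterByExpr, quasi-likelihood test, Benjamini-Hochberg adjustment over all genes tested, threshold 0.05), with the section as a block between classes. DESeq2 1.42.0 was an alternative, and single values were compared by exact permutation tests over sections. Genes were named by rule: Top2a, Ect2, Hmgb2, Egfr, Dcx, Sox9, Sox11, examples of the lists, and up to 10 genes with the largest fold in each direction among those past the threshold. B2m, Lyz2 and Cxcl10 were picked after their values were seen. Some genes that the rule names are not reported here. For the lineage of single cells 13 of 16 lists were used, leaving out the 3 that name no cell type. No doublet caller was run, and an alternative left out the largest cells. Thinning and distances used numpy 2.4.6 and scipy 1.17.1.

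On simulated counts, edgeR called 81.2% of 112 genes changed at least 2-fold in the comparison of ages and 95.1% of 123 against neighbours. All simulated sections shared a pooled profile and a preset spread that was not estimated from these sections. The shares therefore cannot tell how large a change the real comparisons could have missed. Kept cells held 36035355, 31172121, 18765491 and 29004185 transcripts in Young 1, Young 2, Aged 1 and Aged 2. Alternatives covered the limits of the rule, the filters, the normalization, the tool, and each section left out.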

Additional observations from a re-analysis of the deposited data

Results flagged for a closer look

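The border macrophage list (Mrc1, Pf4, Ms4a7 and Cd74) differed in sign between the ages, as its log2 ratio in the Top2a-rich cells over their neighbours was below 0 in both young and above 0 in both aged sections, although the young values were close to 0. The log2 ratio of its share of transcripts was -0.022 and -0.027 in the young and 0.59 and 0.37 in the aged sections, a difference of 0.50 that was not tested for the list. Of its genes, 2 entered the interaction test with age, and they went opposite ways, with 0.74 for Mrc1 (adjusted p = 0.788) and -1.07 for Cd74 (adjusted p = 0.767) by edgeR. The list made up 0.0468, 0.0327, 0.0551 and 0.0784% of the transcripts of the Top2a-rich cells in Young 1, Young 2, Aged 1 and Aged 2, and Pf4 and Cd74 were at 0 in those of Aged 1.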

How the results depend on the processing

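The lower frequency at 18 months kept its direction under every alternative run, with a young to aged ratio of 4.92 to 5.81 over other limits of the rule, and a difference of -27.6 to -25.6 per 10000 with 1 section left out. The distance to ependymal-rich cells ranged from -632 to -230 µm in the same way. Per ependymal-rich cell there were 9.82 and 59.8 Top2a-rich cells in the young and 8.80 and 7.33 in the aged sections. Young 1 thus lay close to the aged sections on that measure. Per 1000 kept cells within 100 µm of an ependymal-rich cell there were 11.2 and 83.1 in the young and 5.49 and 0 in the aged sections. Both measures of frequency rest on few ependymal-rich cells. With 1 section left out, calls numbered 106 to 159 against neighbours (main 145), 28 to 71 against the OPC lineage (main 60), 80 to 105 against Dcx-rich cells (main 118) and 0 to 33 between ages (main 0). Leaving out a section leaves its age with 1 section, so the spread between ages then comes from the other age alone. Other counts that moved were 92 against the OPC lineage without the filter on low counts and 77 against Dcx-rich cells in the band. Between ages there were 13 with DESeq2, 3 and 8 with a Top2a share of at least 0.5% and 2%, and 16 without the cells above the 95th percentile of volume. The cause was not tested. Direction turned for Hmgb2 against the OPC lineage (-0.045 with a Top2a share of 0.5%, -0.45 with an OPC limit of 5%). Between ages it turned for Egfr (-0.0069 with DESeq2, -0.0072 with its size factors, -0.016 without the filter, -0.30 without Young 2, -0.18 without Aged 1, and up to 0.35 without Young 1), Hmgb2 (0.011 with total counts, 0.044 without Aged 2, against -0.31 without Aged 1, 0.20 with a share of 2%) and Ect2 (0.17 in the band, 0.18 with a share of 2%). None of these main values had passed the test. The OPC comparison could not be fitted in the band, since Aged 2 had no OPC-lineage cell there, and the stricter ependymal rule gave no value. Of the named genes' values under the alternatives, 410 of 416 against neighbours, 403 of 408 against the OPC lineage, 374 of 389 against Dcx-rich cells and 107 of 120 between ages kept direction and side of the threshold.

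Sections of the same number did not deviate together clearly (correlation 0.104 over 301 genes). With 2 pairs this cannot show whether they share more than a number. With the replicate block, the comparison of ages had 0 calls and 61 at an unadjusted p under 0.05 (smallest adjusted p = 0.0689). The paired difference in frequency is -26.6 per 10000, which equals the unpaired one by arithmetic.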
